A study of Mus musculus with 24 samples.

Results

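The genes described here were 33 genes of glycolysis and of the hypoxia response, read in dendritic cells that were grown from mouse bone marrow. They were taken from a list of 34 symbols, by the symbol in the deposited annotation table and a mean raw count of at least 10 over the 24 libraries. All 33 passed the filter on low counts and were tested among 14535 genes, of 55487 in the table. P4ha2 had the lowest mean count inside the limit, at 46.8. Outside it stood Adm, the hormone adrenomedullin, at 5.79 counts, and a second identifier with the symbol Aldoa, at 7.62 counts. By role the members were 2 transporters, 10 genes of upper glycolysis, 6 of lower glycolysis, 3 regulators of flux, 3 genes of the oxygen sensor and 9 other genes known to answer to low oxygen.

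The study followed such cultures, fed with GM-CSF, a growth factor for myeloid cells, on days 7, 8, 9 and 10. Control mice (WT) carried floxed Arpc4 alleles and no CD11c-Cre. Knockout mice (KO) carried the same floxed alleles and CD11c-Cre +/-, a recombinase driven by the CD11c promoter, so cells at a stage before CD11c would still hold the gene. Arpc4 is a subunit of the Arp2/3 complex, which starts branched actin filaments. Mice were male and female and 8 to 10 weeks old, and each of the 8 groups of genotype and day had 3 libraries, labelled with the same 3 mouse numbers per genotype on all days, so 6 mice in all. Cells were replated in fresh medium on days 4 and 7, and those in suspension were harvested, more than 90% of them CD11c+ per the labels. The day of culture and the time since the replating on day 7 cannot be told apart, nor, in bulk RNA, can fewer cells of a type and less RNA per cell. If day 7 cells were harvested before that replating, their last fresh medium was that of day 4. Day 8 against day 7 would then also set newer medium against older medium.

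Glycolysis turns glucose into pyruvate in the cytosol and yields ATP without oxygen, and lactate dehydrogenase then regenerates the NAD it needs. The transcription factor HIF-1 pairs the subunit HIF-1α, encoded by Hif1a, with ARNT. Prolyl hydroxylases of the Egln family mark HIF-1α for destruction while oxygen is present, so HIF-1 activity is set largely at the protein level and the amount of Hif1a transcript is a poor guide to it. HIF-1 raises transcription of most glycolytic genes and of genes such as Vegfa, Bnip3 and Ankrd37. Dendritic cells are known to increase glycolysis when they are activated.

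HIF-1 binds a short core, so the 250 bases before the RefSeq starts of the members were searched for ACGTG or GCGTG on either strand (build GRCm38.p6). Windows were found for 32 of the 33 members, and the other one was Ndrg1. The core was present in 39 of 50 windows (78%), and in 38.6% of 32851 windows of all genes. It was found in at least 1 window of 30 of the 32 members, against 41.5% of 27025 genes. The members without it were Gpi1 and Tpi1, which also rose from day 7 to day 8. The longer E-box CACGTG, which contains the core on both strands, was in 5 of the 50 windows (10%) and in 6.02% of all windows. These cores hold a CG pair, and windows were not matched for base composition. Members had more windows per gene (50 for 32 members) than all genes (32851 for 27025), and some member windows overlap. The list was also made in part of genes known to answer to low oxygen. Below, 4 windows are shown, all on the gene's own strand with the core in capitals: Ldha and Pgk1 as enzymes that rose from day 7 to day 8, Bnip3 as a HIF target that did not pass the test, and Vegfa as the member that fell most. The window of Ldha lay at chr7:46845554-46845803 (plus strand), that of Pgk1 at chrX:106186850-106187099 (plus), that of Bnip3 at chr7:138909507-138909756 (minus) and that of Vegfa at chr17:46032378-46032627 (minus).
Ldha: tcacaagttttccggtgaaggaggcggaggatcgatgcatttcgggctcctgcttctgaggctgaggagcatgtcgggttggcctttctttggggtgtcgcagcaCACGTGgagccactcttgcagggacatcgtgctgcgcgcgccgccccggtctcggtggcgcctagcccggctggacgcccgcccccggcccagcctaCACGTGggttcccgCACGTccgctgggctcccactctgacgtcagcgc
Pgk1: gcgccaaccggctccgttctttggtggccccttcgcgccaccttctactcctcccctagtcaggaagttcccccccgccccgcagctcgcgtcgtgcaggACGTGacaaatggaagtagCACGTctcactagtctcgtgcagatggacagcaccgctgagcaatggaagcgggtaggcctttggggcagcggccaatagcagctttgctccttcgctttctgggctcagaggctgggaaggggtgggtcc
Bnip3: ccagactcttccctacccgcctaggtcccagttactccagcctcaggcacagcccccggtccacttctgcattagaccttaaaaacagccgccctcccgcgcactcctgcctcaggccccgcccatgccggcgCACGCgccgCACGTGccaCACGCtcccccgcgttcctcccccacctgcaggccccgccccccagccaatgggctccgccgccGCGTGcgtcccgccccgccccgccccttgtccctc
Vegfa: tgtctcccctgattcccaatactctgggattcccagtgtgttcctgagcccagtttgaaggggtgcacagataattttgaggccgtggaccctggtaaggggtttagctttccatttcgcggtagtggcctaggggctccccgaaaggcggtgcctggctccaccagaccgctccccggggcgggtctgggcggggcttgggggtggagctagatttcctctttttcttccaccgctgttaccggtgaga
The Ldha window held 5 matches, where each CACGTG counts once on either strand, and another Ldha window, before a start farther downstream, held 1. The Pgk1 window held 2 and the Bnip3 window 5. The Vegfa window held 0, and another Vegfa window, before a start farther downstream, held 2. A match of letters shows neither binding nor regulation, and these windows do not reach distal elements.

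Libraries held 19952047 to 31049798 counts. Arpc4 was read at 188 to 270.3 CPM (normalised read counts, scaled to each library's TMM-adjusted total) in WT and 155 to 231 CPM in KO libraries. Its KO and WT ranges did not overlap on any day and its log2 fold change lay between -0.28 and -0.18, but it passed the test on none (adjusted p = 0.18 to 0.69). The labels do not say which exons are floxed, so counts over the whole gene check the deletion only in part. Of each group, 1 library had high counts of the Y-linked gene Ddx3y. In WT it was mouse 63 on all 4 days. In KO it was mouse 64 on days 7 and 9, mouse 68 on day 8 and mouse 67 on day 10, which goes against 1 animal per number, so results that use the KO numbers across days rest on doubtful labels. Defining genes of dendritic cells (9 genes) summed to 2417 to 3015 CPM on day 7 and 5283 to 7116 CPM on day 10 in WT. Macrophage genes (8 genes) summed to 4499.9 to 4794 and 3187 to 3282 CPM, and neutrophil genes (9 genes) to 1670.3 to 3282 and 4023 to 5900.3 CPM on the same days. In KO the sums were 2722 to 3381 and 4762 to 8123 CPM for dendritic cells, 4359 to 5338 and 2947 to 4261 CPM for macrophages, and 2243 to 5844 and 2853 to 4777 CPM for neutrophils. Genes of B cells, T and NK cells and erythroid cells summed to at most 10.53 CPM in any library. Per library, TMM factors were 0.877 to 0.969 on day 7 and 0.982 to 1.13 later.

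The first day after replating was the step with the most changes. In WT, 19 of the 33 members passed the test from day 7 to day 8 (edgeR quasi-likelihood test, adjusted p under 0.05), 12 higher and 7 lower, while 43.4% of all genes tested passed (21.5% higher, 22% lower). In KO, 18 passed, 11 higher and 7 lower, against 42% of all genes (21.1% higher, 20.9% lower). The members' median log2 fold change was 0.14 in WT and 0.08 in KO, and that of all genes -0.0038 and 0.0018. The share of members that passed was thus above that of all genes, 57.6% in WT and 54.5% in KO, in a list put together with results of these data known. Among genes with at least 50 counts on average the gap was smaller. There 10 of 32 members rose and 8 fell in WT, where 49.8% of all genes passed. In KO 9 of 32 rose and 7 fell, where 48.3% passed. Without the library with high Ddx3y in each group, 10 members rose and 7 fell in WT (37.1% of all genes passed), and 10 rose and 6 fell in KO (40.2%). From day 7 to day 8 in WT, 3 of 8 macrophage genes rose, 2 of 9 neutrophil genes fell, 0 of 9 dendritic cell genes passed, 2 of 4 genes of mast cells and basophils rose (sum 28.3 to 39.7 and then 50.4 to 71.8 CPM), and of 6 genes of dividing cells 4 rose and 1 fell. In KO the counts were 1 macrophage gene higher and 1 lower, 4 neutrophil genes lower, 1 dendritic cell gene higher, 1 gene of dividing cells higher and 1 lower, and 0 of the mast cell and basophil genes. The part of such shifts in the members' changes was not tested.

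**Figure D1:**
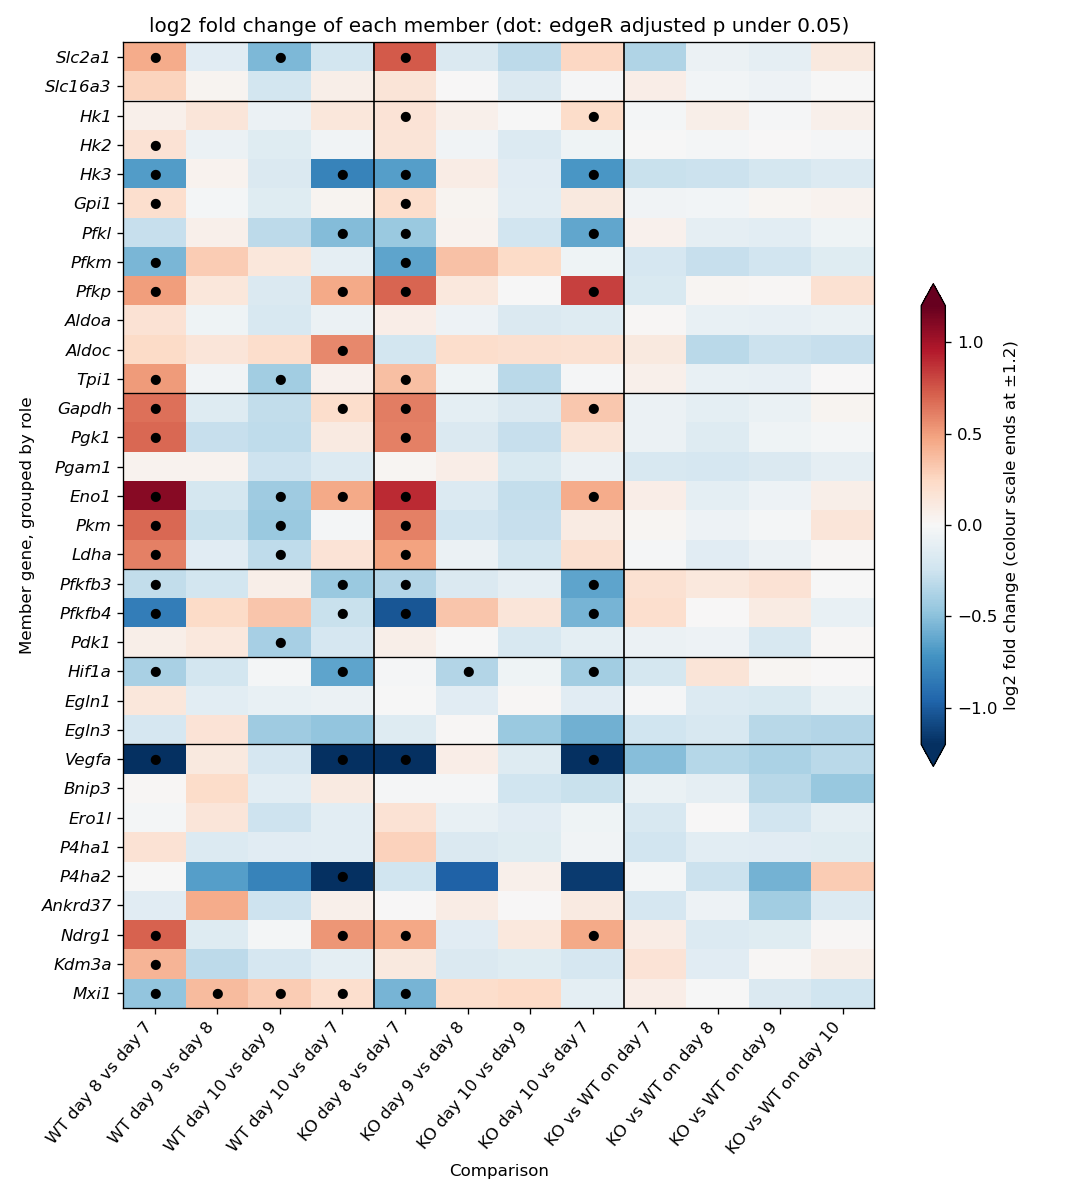
Map of the log2 fold change of each of the 33 members (rows, in blocks by role, from transport at the top to the other hypoxia genes at the bottom) in 8 comparisons between days and 4 between genotypes (columns). Red is higher and blue lower in the group named first, colours end at ±1.2, and a dot marks an adjusted p under 0.05. Dots crowd in the columns of day 8 against day 7 and are absent from the 4 columns of KO against WT.

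Of the 6 genes of lower glycolysis, 5 rose from day 7 to day 8 in each genotype, where 21.5% of all genes rose in WT and 21.1% in KO. The sixth, Pgam1, had log2 fold changes of 0.04 in WT and 0.03 in KO that did not pass. Eno1, the main enolase of these cells, read 599.6, 571 and 612 CPM on day 7 in WT mice 63, 65 and 66 and 1352, 1192 and 1248 CPM on day 8. In KO mice 64, 67 and 68 it read 603, 625 and 652 CPM on day 7 and 1135, 1119 and 1251 CPM on day 8. Every day 8 library lay far above every day 7 library. This was a 2.13-fold rise in WT (log2 fold change 1.09, SE 0.08, adjusted p = 2e-09) and a 1.86-fold rise in KO (log2 fold change 0.90, SE 0.08, adjusted p = 2.8e-08), the largest rise of any member at this step in either genotype.

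Pkm, pyruvate kinase, read 1008, 1076 and 1073 CPM on day 7 and 1784, 1670.3 and 1625 CPM on day 8 in WT. KO libraries read 1056, 1044 and 1110.1 and then 1567, 1450.4 and 1856 CPM. The days did not overlap in WT (log2 fold change 0.69, SE 0.11, adjusted p = 6.9e-05) or KO (log2 fold change 0.60, SE 0.11, adjusted p = 0.00028). Pgk1, which makes the first ATP of the pathway, read 239, 246 and 261 CPM and then 403, 414 and 387 CPM in WT. The KO values were 231, 222 and 255 and then 379.7, 309 and 390.1 CPM. Again no day 8 library fell within the day 7 range, and Pgk1 rose in WT (log2 fold change 0.69, SE 0.10, adjusted p = 8.3e-06) and KO (log2 fold change 0.61, SE 0.10, adjusted p = 3.8e-05). Gapdh, the dehydrogenase ahead of Pgk1 and a gene often used as a reference for equal loading, read 1205, 1246 and 1268 CPM and then 2073, 1889 and 1914 CPM in WT. In KO it read 1135, 1151 and 1252 and then 1717, 1674 and 2012 CPM. It rose 1.58-fold in WT (adjusted p = 2.9e-06) and 1.53-fold in KO (adjusted p = 7.8e-06), so it was not level across these days. Ldha, which turns pyruvate into lactate, rose in WT, where it averaged 663 ± 15.6 (SD, n = 3) CPM on day 7 and 1011 ± 40.3 CPM a day later (log2 fold change 0.61). KO cultures averaged 655 ± 50.6 and 918 ± 90.9 CPM (0.49).

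Per unit of length these are among the most abundant members. The summed TPM (transcript abundance per unit of gene length) of the 6 genes was 2798 ± 80.7 (SD, n = 3) on day 7 in WT, and then 5150.1 ± 225, 4712 ± 123 and 3743 ± 131 on the days that followed. In KO it was 2834 ± 63.7, 4924 ± 154, 4689 ± 54.0 and 4060 ± 43.4. All 16 enzymes from hexokinase to lactate dehydrogenase took 0.62% to 0.643% of raw counts on day 7 in WT and 0.951% to 1.04% on day 8. TPM moved more than CPM here: the median of all genes shifted by 0.17 on the log2(TPM + 1) scale from day 7 to day 8 in each genotype and, from day 7 to day 10, by 0.21 in WT and 0.25 in KO. On that scale 19 members passed higher and 4 lower from day 7 to day 8 in WT, where 46.8% of all genes passed, and 18 and 5 in KO, where 46% did. Within WT day 7 libraries the order of TPM began with Aldoa (1139 ± 27.9), Gapdh (796 ± 23.2), Pkm (558 ± 23.9) and Ldha (532 ± 14.5), where the ranges of Pkm and Ldha overlapped. It ended with Pfkm (9.40 ± 0.221), Ankrd37 (6.64 ± 2.18) and P4ha2 (1.10 ± 0.284).

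In upper glycolysis the isozymes went separate ways. From day 7 to day 8, 4 of 10 genes rose and 2 fell in WT, where 21.5% of all genes rose and 22% fell, and 4 rose and 3 fell in KO, where 21.1% rose and 20.9% fell. Tpi1, triose phosphate isomerase, rose in both (log2 fold changes 0.51 and 0.36), as did Gpi1, the glucose phosphate isomerase, by less (0.20 and 0.21). Gpi1 kept its call in the main fit only narrowly (adjusted p = 0.045 and 0.04) and lost it in 6 and 8 of 15 alternative settings. Spsb2 overlaps Tpi1 on the other strand with 7.27% of its counts. Aldoa, the main aldolase, did not pass in any comparison of the main fit (log2 fold change 0.18 in WT and 0.08 in KO at this step). In TPM it read 1139 ± 27.9 on day 7 and 1506 ± 24.6 on day 8 in WT. Aldoc, the other aldolase, rose from day 7 to day 10 in WT (0.58) and kept this call in all 15 alternatives. In KO Aldoc did not pass.

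Hexokinases trap glucose in the cell as glucose phosphate. Hk3, the form typical of myeloid cells, read 373, 493 and 428 CPM on day 7 and 261, 294 and 261 CPM on day 8 in WT. KO libraries read 402, 302 and 368 and then 216, 179 and 285 CPM. Every day 8 library lay below the day 7 range, and Hk3 fell in WT (log2 fold change -0.67, SE 0.20, adjusted p = 0.012) and KO (log2 fold change -0.66, SE 0.20, adjusted p = 0.014). By day 10 it read 209, 290.4 and 242 CPM in WT and 154, 299 and 207 CPM in KO, a fall from day 7 by 0.80 and 0.70 on the log2 scale (adjusted p = 0.0042 and 0.011). The call to day 8 was lost without mouse 65 or 66 in WT and without mouse 64 in KO, and that to day 10 without mouse 66 in WT and without mouse 64 or 68 in KO, or with only the libraries compared in KO. Hk2, the inducible form, averaged 134 ± 5.70 and 151 ± 10.4 CPM on these 2 days in WT (log2 fold change 0.18, adjusted p = 0.033), and Hk1 113 ± 4.56 and 126 ± 5.74 CPM in KO (0.16, adjusted p = 0.039). The calls of Hk2 in WT and of Hk1 in KO were each lost in 7 of 15 alternatives. As a share of the 3 hexokinases' TPM, Hk3 made up 76.4% ± 2.73 (SD, n = 3) on day 7, 65.2% ± 0.981 on day 8 and 64.4% ± 3.43 on day 10 in WT. In KO the shares were 73.0% ± 1.92, 60.2% ± 5.64 and 60.7% ± 7.58.

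Phosphofructokinase catalyses the committed step, and its 3 genes did not move in 1 direction. Pfkp, the platelet form, read 111, 115 and 122 CPM on day 7 and 164, 161 and 168 CPM on day 8 in WT. The KO values were 107, 103 and 98.0 and then 169, 184 and 148 CPM. It rose in WT (log2 fold change 0.50, SE 0.09, adjusted p = 0.00017) and KO (log2 fold change 0.70, SE 0.09, adjusted p = 4.4e-06) with no overlap of days. By day 10 it stood at 154, 161 and 164 CPM in WT and 188, 179.8 and 176 CPM in KO, still above day 7 (log2 fold changes 0.46 and 0.82). Pfkl, the liver form, fell from day 7 to day 10 in both (-0.52 and -0.63; adjusted p = 0.0021 and 0.00051), and from day 7 to day 8 in KO (-0.44) with -0.28 in WT that did not pass (adjusted p = 0.071, and 0.0065 with the mouse as a block). On log2(TPM + 1) the call to day 10 in WT (-0.24, adjusted p = 0.094) and the call to day 8 in KO (-0.21, adjusted p = 0.13) were lost. The call to day 8 in KO was also lost without mouse 64. Pfkm, the muscle form, fell to day 8 in both (-0.55 and -0.63) and did not differ by the test on day 10. On log2(TPM + 1) its WT value to day 8 was -0.30 (adjusted p = 0.080). Pfkl made up 70.8% ± 3.29 of the TPM of the 3 genes on day 7 and 57.7% ± 3.61 on day 10 in WT, and 74.2% ± 1.68 and 54.9% ± 2.90 in KO. Pfkp went from 20.7% ± 2.46 to 33.2% ± 2.69 in WT and from 18.4% ± 1.04 to 36.9% ± 1.72 in KO, so Pfkl stayed the larger share on every day. No test was made on shares. Senp1 overlaps Pfkm on the opposite strand with 411% of its counts, and Pitrm1 overlaps Pfkp with 37.8%. Whether the deposited counting used strand is not given in the sources used here, so the values of Pfkm are uncertain.

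**Figure D2:**
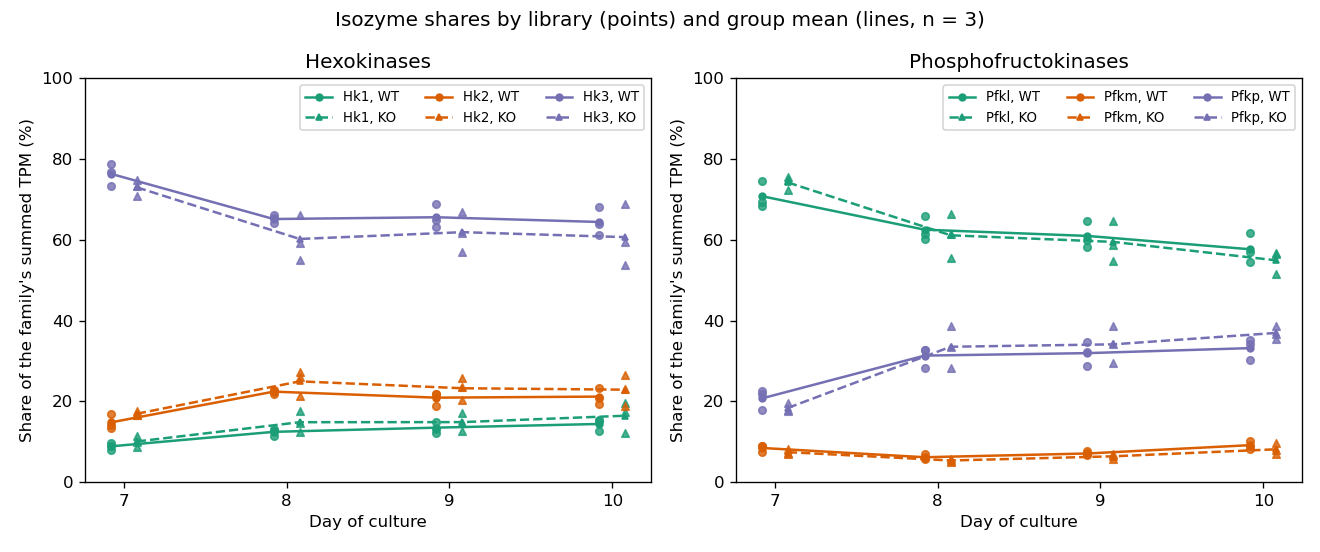
Share of each isozyme in the summed TPM (%) of the hexokinases (left) and phosphofructokinases (right) by day of culture, with 1 point per library and lines through the means of 3 mice (solid for WT, dashed for KO). Hk3 and Pfkl were the largest shares on every day, at 76.4% and 70.8% on day 7 in WT, and Pfkp rose from 20.7% to 33.2% by day 10 as Pfkl went to 57.7%.

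Of the transporters, Slc2a1 encodes the glucose importer GLUT1. It read 139, 155 and 146 CPM on day 7, then 209, 197 and 193 CPM on day 8, 187, 179 and 181 CPM on day 9 and finally 120.2, 131 and 126 CPM on day 10 in WT. In KO the values were 118, 98.3 and 126 CPM on day 7, then 191, 176 and 205 CPM on day 8, 178, 153 and 176 CPM on day 9 and finally 115, 161 and 132 CPM on day 10. Day 8 was above day 7 in all libraries, a rise of 1.36-fold in WT (log2 fold change 0.45, SE 0.10, adjusted p = 0.0015) and 1.66-fold in KO (log2 fold change 0.74, SE 0.10, adjusted p = 9.7e-06). From day 9 to day 10 Slc2a1 fell in WT (log2 fold change -0.53, SE 0.10, adjusted p = 0.0073), a call lost without any 1 of the 3 WT mice, and in KO the log2 fold change of -0.31 did not pass (adjusted p = 0.20). Slc16a3, which exports lactate, did not pass in any comparison of the main fit (log2 fold change 0.26 in WT and 0.16 in KO from day 7 to day 8). With the mouse as a block the WT value was called (adjusted p = 0.017), and the other alternatives are not given for it. In TPM it read 57.2 ± 6.87 on day 7 and 80.5 ± 7.51 on day 8 in WT.

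Of the 3 flux regulators, 2 fell from day 7 to day 8 in each genotype, where 22% of all genes fell in WT and 20.9% in KO. Pfkfb3 and Pfkfb4 make and break down the allosteric activator of phosphofructokinase. Pfkfb4 read 67.0, 63.4 and 68.8 CPM on day 7 and 37.5, 36.4 and 38.3 CPM on day 8 in WT. In KO it read 73.7, 75.9 and 79.5 and then 38.8, 36.3 and 37.2 CPM. The 6 day 8 libraries were tightly grouped and all far below day 7, in WT (log2 fold change -0.83, SE 0.10, adjusted p = 1.1e-06) and KO (log2 fold change -1.03, SE 0.10, adjusted p = 7.7e-08). On day 10 it read 58.7, 49.4 and 57.7 CPM in WT and 43.3, 50.3 and 62.3 CPM in KO. Against day 7 that was -0.26 (adjusted p = 0.036) and -0.55 (adjusted p = 0.00016), and on the log2(TPM + 1) scale the WT value turned to 0.02 (adjusted p = 0.91). The WT call was also lost without any 1 WT mouse. Pfkfb3 fell by day 10. WT libraries averaged 77.1 ± 3.44 CPM at the start and 56.8 ± 3.52 at the end, and KO libraries 87.6 ± 2.32 and 56.7 ± 1.23 (log2 fold changes -0.44 and -0.63). On log2(TPM + 1) the WT value was -0.15 (adjusted p = 0.29). Its smaller fall to day 8 (-0.29 and -0.35) was not called on that scale either, at -0.07 in WT and -0.12 in KO (adjusted p = 0.64 and 0.42), and was lost without mouse 63 or 66 in WT, without mouse 68 in KO, and without the libraries with high Ddx3y in both. Pdk1, a kinase that switches off pyruvate dehydrogenase in the mitochondrion, did not pass from day 7 to day 8 (0.07 in both genotypes).

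**Figure D3:**
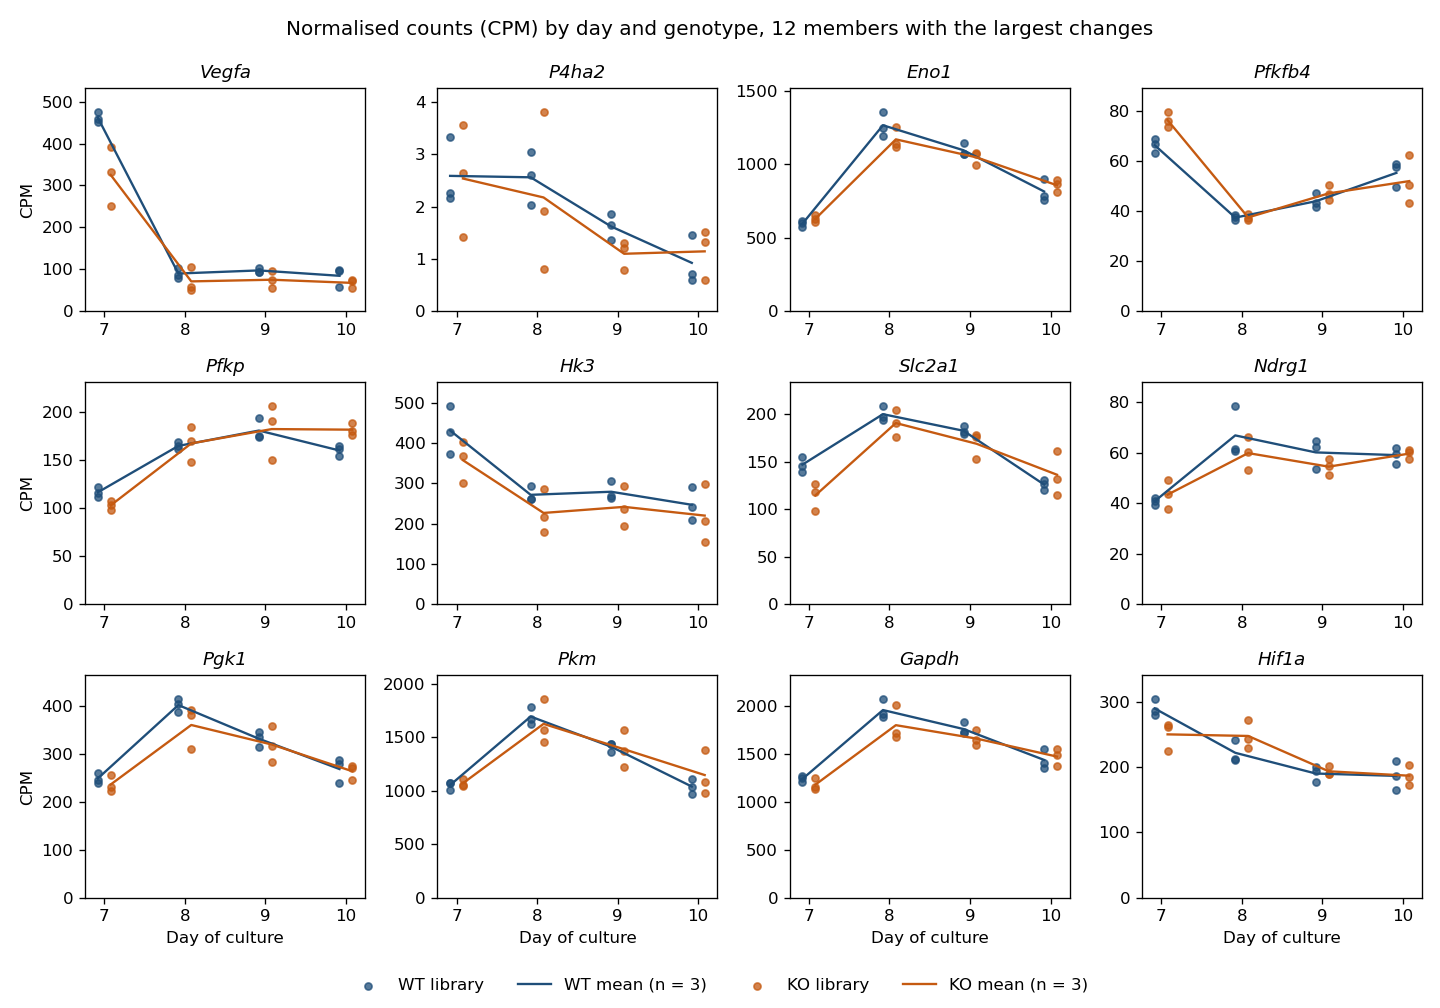
Normalised counts (CPM, vertical axes from 0) by day of culture for the 12 members with the largest changes that passed the test, with 1 point per library and lines through the means of 3 mice (blue for WT, orange for KO). Eno1, Pgk1, Pkm, Gapdh and Slc2a1 peaked on day 8, Pfkfb4 was lowest on day 8, and Vegfa went from 252 to 475 CPM on day 7 to at most 105 CPM in all later libraries.

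None of the 3 genes of the oxygen sensor rose by the test in any of the 8 comparisons between days. Egln1 had a value of 0.14 from day 7 to day 8 in WT, with its day 8 range above day 7, that did not pass. Hif1a read 304, 286 and 279 CPM on day 7, then 211, 242 and 212 CPM on day 8, 177, 193 and 199.8 CPM on day 9 and finally 209, 186 and 165 CPM on day 10 in WT. KO libraries read 261, 225 and 265 CPM on day 7, then 272, 242 and 228 CPM on day 8, 202, 189.8 and 189 CPM on day 9 and finally 203, 172 and 185 CPM on day 10. It fell from day 7 to day 8 in WT (log2 fold change -0.38, SE 0.09, adjusted p = 0.0021), while in KO the value was -0.01 (adjusted p = 0.92) and it fell from day 8 to day 9 (-0.36, adjusted p = 0.046). The difference between the genotypes in the first step was 0.37 (95% interval 0.09 to 0.65) and did not pass (adjusted p = 0.85). By day 10 Hif1a was lower than on day 7 in both, by 0.64 and 0.42 on the log2 scale (adjusted p = 2.6e-05 and 0.0014). On log2(TPM + 1) these were -0.35, still called, and -0.11 (adjusted p = 0.42), and the WT value to day 8 was -0.16 (adjusted p = 0.27). The call from day 8 to day 9 in KO was lost whenever any 1 mouse was left out. Egln1 and Egln3, the hydroxylases, passed in no comparison of the main fit, with log2 fold changes for day 10 against day 7 of -0.07 and -0.47 in WT and -0.13 and -0.58 in KO. With the mouse as a block the KO value of Egln3 was called (adjusted p = 0.039).

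Of the 9 other hypoxia genes, 2 rose and 2 fell from day 7 to day 8 in WT, and 1 rose and 2 fell in KO, while 21.5% of all genes rose and 22% fell in WT, and 21.1% and 20.9% in KO. Vegfa, the growth factor of blood vessels, read 459.5, 451 and 475 CPM on day 7, then 87.1, 103 and 78.4 CPM on day 8, 93.5, 104 and 93.5 CPM on day 9 and finally 98.8, 95.3 and 58.1 CPM on day 10 in WT. The KO values were 391, 252 and 332 CPM on day 7, then 57.9, 49.6 and 105 CPM on day 8, 95.2, 55.3 and 73.5 CPM on day 9 and finally 55.3, 72.5 and 73.5 CPM on day 10. All day 7 libraries stood apart from all later ones, and the later days overlapped. The fall to day 8 was by 2.37 on the log2 scale in WT (SE 0.25, adjusted p = 3.4e-07) and by 2.20 in KO (SE 0.25, adjusted p = 8.2e-07), to 0.194 and 0.217 of the day 7 level. It was the largest change of any member at this step in either genotype, and opposite in sign to Eno1, Pgk1 and Ldha.

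Ndrg1, a stress-response gene, read 42.1, 39.2 and 41.1 CPM on day 7 and 60.6, 78.6 and 61.3 CPM on day 8 in WT. In KO it read 37.6, 49.1 and 43.5 and then 53.0, 60.1 and 66.4 CPM. It rose in WT (log2 fold change 0.71, SE 0.11, adjusted p = 2.1e-05) and KO (log2 fold change 0.46, SE 0.11, adjusted p = 0.0015), and stood above day 7 on day 10 as well (0.53 and 0.46). Kdm3a, a histone demethylase, rose to day 8 in WT (0.41, adjusted p = 0.0061), with 0.11 in KO that did not pass, and the WT call was lost without mouse 65. Mxi1, which competes with MYC for its partner MAX, fell to day 8 in both (-0.47 and -0.56) and then rose in WT, by 0.38 to day 9 and 0.30 to day 10. The call to day 9 was lost without mouse 63 or 66, and the call to day 10 without any 1 WT mouse. In KO, Mxi1 passed at neither of these steps, but its TPM also went up, at 24.6 ± 0.0987, 29.5 ± 1.17 and 35.4 ± 3.93 on days 8, 9 and 10. P4ha2, a collagen prolyl hydroxylase at the edge of detection, read 2.17, 3.32 and 2.27 CPM on day 7 and 1.46, 0.706 and 0.599 CPM on day 10 in WT. KO libraries read 2.63, 1.41 and 3.56 and then 0.5964, 1.325 and 1.504 CPM, and these overlapped. It fell in WT (log2 fold change -1.48, SE 0.47, adjusted p = 0.018) and not by the test in KO (-1.15, adjusted p = 0.052, and 0.036 with the mouse as a block). The WT call was lost without mouse 65 and without mouse 66.

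Bnip3, which targets mitochondria for breakdown, Ero1l, an oxidase of the endoplasmic reticulum, P4ha1 and Ankrd37 passed in none of the 14 tests of the main fit. Bnip3 read 32.4 ± 3.75 (SD, n = 3) CPM on day 7 and 32.6 ± 2.52 on day 8 in WT, with 30.6 ± 4.46 and 30.4 ± 3.06 in KO. The days overlapped in both genotypes, in WT (log2 fold change 0.01, SE 0.21, adjusted p = 0.97) and KO (log2 fold change -0.01, SE 0.22, adjusted p = 0.97). Ankrd37 was at 2.70 to 6.02 CPM over all libraries, and the gene Ufsp2 on the opposite strand held 1258% of its counts, so its values are uncertain.

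After day 8 few members passed. From day 8 to day 9, 1 rose in WT (Mxi1), where 5.4% of all genes passed and 3.06% rose. In KO 1 fell (Hif1a), where 2.33% of all genes passed and 1.02% fell. From day 9 to day 10 in WT, 6 fell and 1 rose, against 3.6% of all genes (2.42% lower, 1.18% higher). Those that fell were Slc2a1 (-0.53), Tpi1 (-0.42), Eno1 (-0.43), Pkm (-0.44), Ldha (-0.31) and Pdk1 (-0.40). Pdk1 was at the limit (adjusted p = 0.049) and lost its call in 9 of 15 alternatives, among them DESeq2 size factors and limma, and Ldha (adjusted p = 0.040) lost its call in 7. Eno1 read 1144, 1069 and 1069 CPM on day 9 and 785, 758 and 898 CPM on day 10, with no overlap. All 6 lower glycolysis genes had day 10 ranges below day 9 in WT, where 11.9% of all genes had such ranges. Calls at this step rested on few mice over all genes as well. Without mouse 63, 0 members and 0% of all genes passed, without mouse 65, 0 members and 0.2%, and without mouse 66, 2 members (Eno1 and Tpi1) and 1.31%. With the mouse as a block the adjusted p of Pkm was 0.066, and Pfkl (-0.31, adjusted p = 0.036) and Pfkfb4 (0.33, adjusted p = 0.041) were called as well. In KO, 0 members passed from day 9 to day 10 by edgeR, and 0.0963% of all genes. There, 8 members had an unadjusted p under 0.05, as did 12% of all genes, and DESeq2 called 2 members and 1.65% of all genes. Without mouse 67, 10 members passed lower, and 14.4% of all genes passed. All 6 lower glycolysis genes had negative values there too, from -0.29 to -0.17. Steps that share a day share its libraries, so they are not independent.

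Over the whole course, day 10 against day 7, 13 members passed in WT, 6 higher and 7 lower (37% of all genes; 18.9% higher, 18.1% lower). In KO 11 passed, 5 higher and 6 lower (36.8% of all genes; 19.7% higher, 17.1% lower). Aldoc was among the members higher in WT and kept its call in all 15 alternatives. Mxi1 was higher in WT and Hk1 in KO, calls lost in 5 and 3 of 15 alternatives. Of lower glycolysis only Gapdh (0.21 and 0.32) and Eno1 (0.45 and 0.45) were still higher on day 10 by the test, while Pgk1, Pkm and Ldha had values of 0.11, -0.02 and 0.16 in WT and 0.16, 0.10 and 0.20 in KO. Gapdh in WT was at the limit (adjusted p = 0.049, and 0.058 with the mouse as a block) and lost its call in 8 of 15 alternatives. In KO the call of Gapdh was lost with only the libraries compared (adjusted p = 0.091). By group means of CPM, 14 of 33 members were highest on day 8 in each genotype. In WT the other peaks were 9 members on day 7, then 8 on day 9 and 2 on the last day, and in KO 12, 5 and 2. Peak days were not counted over all genes, so these counts have no share to stand beside. Some peaks were small, such as Hk2 in WT at 1.16 times its lowest day. On log2(TPM + 1), 15 members passed higher and 4 lower in WT (47.3% of all genes), and 15 and 5 in KO (51.6%). On the way from day 7 to day 10, 5 of 6 genes of dividing cells rose in each genotype (in WT their sum was 273 to 291 and then 790 to 989 CPM), as did 5 of 9 dendritic cell genes. Of 8 macrophage genes 1 rose and 4 fell in WT, and 1 rose and 5 fell in KO. Of 9 neutrophil genes 5 rose in WT, and in KO 1 fell. Their part in the members' values was not tested.

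KO against WT was tested on each day, and 0 of the 33 members passed by edgeR on any. Of all genes, 1.45% passed on day 7 and 0.00688%, 0.00688% and 0.0138% on days 8, 9 and 10. On day 7, 5 members had an unadjusted p under 0.05, where 15.7% of all genes did, and DESeq2 called 1, where it called 4.17% of all genes. On days 8, 9 and 10 there were 3, 2 and 3 members at an unadjusted p under 0.05, against 5.91%, 8.15% and 7.3% of all genes, and 0 by DESeq2. These members' counts were near the shares of all genes. On day 7, 7 members had KO ranges below WT and 2 above, where 14.2% and 11.9% of all genes tested did. Slc2a1 had the smallest adjusted p. Its KO libraries at 118, 98.3 and 126 CPM lay below the WT libraries at 139, 155 and 146 CPM (log2 fold change -0.36, 95% interval -0.58 to -0.14, adjusted p = 0.085). Over the alternatives the value ran from -0.44 to -0.24, the latter without mouse 67, and DESeq2 and limma called it (adjusted p = 0.046 and 0.043). Vegfa was also lower in all KO libraries on day 7 (-0.51, 95% interval -1.01 to 0.00, adjusted p = 0.31). On days 8, 9 and 10 Vegfa ranges overlapped, with values of -0.34, -0.38 and -0.33. The 2 members above were Pfkfb3 (0.18) and Pfkfb4 (0.20), neither past the test. Over the members the intervals on day 7 reached from -1.01 for Vegfa to 0.90 for P4ha2, so differences within them are not excluded. On day 7 neutrophil genes summed to 1670.3 to 3282 CPM in WT and 2243 to 5844 CPM in KO, and genes of dividing cells to 273 to 291 and 344 to 505 CPM, with 0 genes of either list called. Macrophage genes summed to 4499.9 to 4794 and 4359 to 5338 CPM, and 1 of 8 was called, higher in KO. The part of these in the members' values was not tested.

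**Figure D4:**
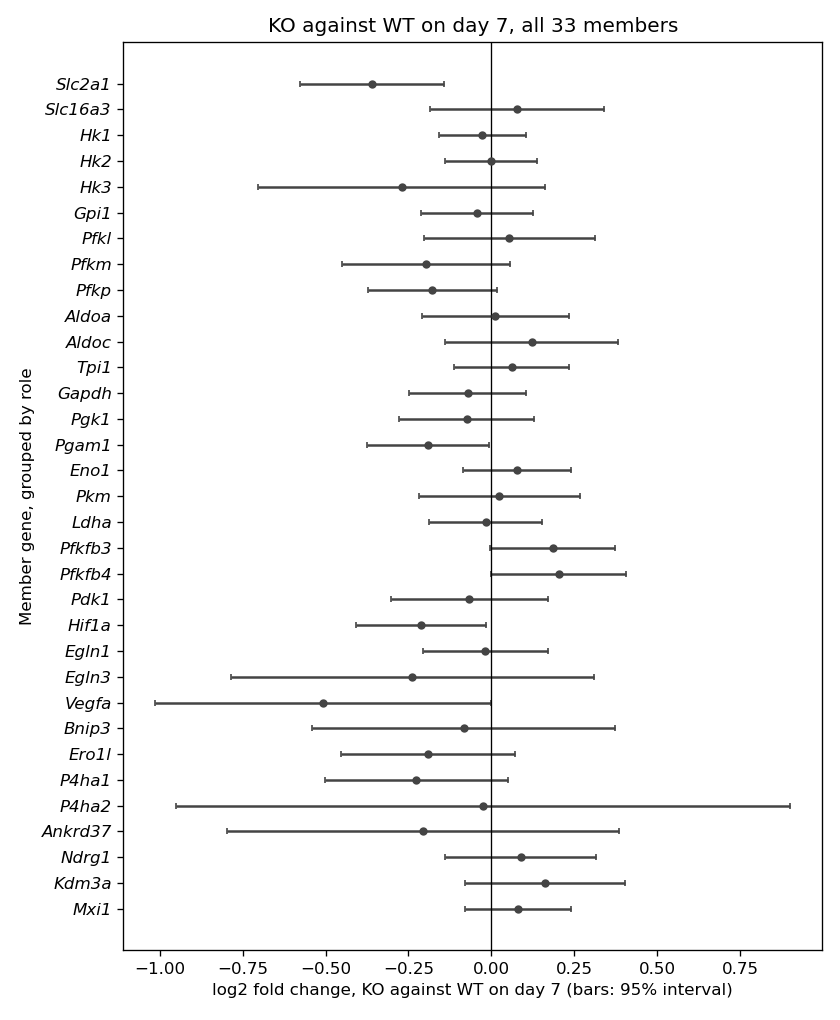
log2 fold change of KO against WT on day 7 for each of the 33 members (rows, ordered by role), with 3 mice per group and bars for the 95% interval. Values lay between -0.51 (Vegfa) and 0.20 (Pfkfb4), most intervals included 0, that of Slc2a1 ran from -0.58 to -0.14, and 0 members passed after adjustment over all genes.

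The difference between the genotypes in the change over days was tested as an interaction, and 0 members passed. For day 8 against day 7, 0.0275% of all genes passed, and 2 members had an unadjusted p under 0.05, where 4.71% of all genes did, with 0 by DESeq2. For day 10 against day 7, 0.0619% of all genes passed, and there were 5 such members, where 6.31% of all genes had such a p, with 0 by DESeq2. The smallest p was that of Slc2a1 over the whole course, where the log2 change was -0.22 in WT and 0.25 in KO (difference 0.47, 95% interval 0.17 to 0.78, adjusted p = 0.51). For Pfkp the difference was 0.36 (0.09 to 0.63) and for Mxi1 -0.32 (-0.55 to -0.10), with adjusted p = 0.63 and 0.57. These comparisons share the day 7 libraries with those above.

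Other genes of the same pathways, from lists put together with results of these data known, were counted from day 7 to day 8 in WT, where 21.5% of all genes rose and 22% fell. Of 16 other genes of glycolysis and sugar transport that were tested, 5 rose and 8 fell. Of 13 genes of mitochondrial pyruvate use (the carrier, pyruvate dehydrogenase with its kinases and phosphatases, and pyruvate carboxylase), 6 rose and 3 fell. Of 15 regulators of HIF, 3 rose and 4 fell, and of 33 other hypoxia targets 10 rose and 10 fell. Of 7 genes of the pentose phosphate pathway, 2 rose and 2 fell. In KO, where 21.1% of all genes rose and 20.9% fell, the counts were 5 and 6, 7 and 3, 3 and 4, 9 and 7, and 2 and 2, in the same order.

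Of each list, up to 3 genes per direction with the largest changes that passed from day 7 to day 10 in WT were kept. Only some of these are given here. Among them Epas1, which encodes HIF-2α, went from 33.5 ± 2.95 (SD, n = 3) CPM on day 7 to 5.72 ± 0.570 on day 8 and 7.98 ± 0.721 on day 10 in WT. In KO it went from 32.7 ± 7.18 to 5.08 ± 1.07 and 6.48 ± 2.15 CPM. It fell by 2.55 and 2.69 on the log2 scale to day 8 (adjusted p = 9.2e-08 and 5.3e-08). Eno2, another enolase, fell as Eno1 rose, with means of 10.9 ± 0.546 and then 2.25 ± 0.526 CPM for WT and 6.51 ± 1.07 and then 1.58 ± 0.279 CPM for KO (log2 fold changes -2.28 and -2.05). Ldhb, the partner subunit of Ldha, fell as well, with 22.1 ± 4.06 and 6.54 ± 1.89 CPM for WT and 20.5 ± 2.70 and 5.29 ± 1.15 CPM for KO (-1.76 and -1.95). Slc2a6, a hexose transporter, rose, with 33.7 ± 4.09 and 95.01 ± 15.6 CPM for WT and 58.2 ± 15.4 and 104 ± 23.3 CPM for KO (1.496 and 0.84). Pdk3, a pyruvate dehydrogenase kinase like Pdk1, rose, with 21.98 ± 1.72 and 53.5 ± 2.64 CPM for WT and 27.6 ± 5.28 and 61.5 ± 16.1 CPM for KO (1.28 and 1.16). Hilpda, a lipid droplet gene, reached its low later, at 54.4 ± 4.65 CPM on day 7, 31.8 ± 5.09 on day 8 and 9.61 ± 2.35 on day 10 in WT, with 36.6 ± 10.9, 28.9 ± 13.0 and 10.52 ± 5.35 in KO. It fell from day 7 to day 10 (-2.50 and -1.80) and did not pass from day 7 to day 8. Over the whole course in WT, 7 of the 33 other hypoxia targets rose and 10 fell. Of these targets Tfrc (1.26 in WT and 1.04 in KO) and Ddit4 (0.81 and 0.51) rose. Dusp1 (-2.18 and -1.77) and Rab20 (-1.56 and -1.42) fell.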

How the data were processed

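RNA of 24 bone-marrow-derived dendritic cell cultures was sequenced, 3 libraries for each of 8 groups of genotype and day, from 6 mice by their numbers. Per the submitters' processing notes, FastQC 0.11.9, STAR 2.6.1 and DESeq2 1.22.2 were used with build mm10; the counter, its strand setting and the annotation are not given in the sources used here. Of the deposited identifiers, 55394 of 55487 were found in GENCODE M21 when versions were ignored. The authors deposited raw counts per gene and TPM values per gene, and both were used as deposited. The labels name 2 library kits without saying which library had which.

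Counts were fitted with edgeR 4.0.16 (R 4.3.3) in 1 quasi-likelihood model over all 8 groups, with TMM scaling and filterByExpr, and p-values were adjusted over the 14535 genes tested by the Benjamini-Hochberg method. Intervals are 95%. CPM values were computed on TMM-scaled totals. DESeq2 1.42.0 and limma 3.58.1 on log2(TPM + 1) were alternatives, as were other filters, leaving out each mouse and the mouse as a block. Replicates within a group carry different mouse numbers. The same numbers recur on each day, so comparisons between days are paired in WT, and the fit without a block treats those libraries as independent. For pairing, deviations of same-numbered samples were correlated over 11002 genes: means were 0.42, 0.40 and 0.26 for the WT mice and -0.104, -0.0135 and 0.135 for the KO mice. Members named with per-library values were the 12 with the largest changes that passed the test. Members and lists were chosen with earlier results of these data known.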

Additional observations from a re-analysis of the deposited data

How the results depend on the processing

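When 1 mouse was left out, the number of members that passed from day 7 to day 8 was 15 to 19 in WT, where 30.2% to 47.9% of all genes passed, and 14 to 18 in KO (32.1% to 39.6%). With only the libraries compared, 16 members rose and 7 fell at this step in WT (52.1% of all genes), and 9 rose and 7 fell in KO (31.1%). Except where the text says so, members that an alternative added are not named here. For day 10 against day 7 it was 8 to 13 in WT (22.5% to 40.6%; 8 and 22.5% without mouse 66) and 9 to 15 in KO (22% to 39.8%), where limma on log2(TPM + 1) gave 20 in place of 11 (51.6%). From day 8 to day 9 in WT, 1 member (5.4% of all genes) became 3 with DESeq2 (10.3%), 5 with only the libraries compared (14.6%), 0 without the libraries with high Ddx3y (3.89%) and 0 to 2 when 1 mouse was left out (0.117% to 11.4%). In KO, 1 (2.33%) became 2 with DESeq2 (6.99%), 0 with only the libraries compared (0%), 0 with limma (1.59%) and 0 to 0 when 1 mouse was left out (0.144% to 3.8%). From day 9 to day 10 in WT, 7 (3.6%) became 4 with only the libraries compared (5.33%), 0 without the libraries with high Ddx3y (0.777%) and 0 to 10 when 1 mouse was left out (0% to 7.3%). In KO, 0 (0.0963%) became 2 with DESeq2 (1.65%) and 0 to 10 when 1 mouse was left out (0% to 14.4%). For KO against WT on day 7, 0 (1.45%) became 1 with DESeq2 (4.17%) and 1 with limma (0.826%).

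With the mouse number as a replicate block, 13 members rose and 8 fell from day 7 to day 8 in WT (43.4% of all genes passed), and 11 rose and 7 fell in KO (41.6%). For WT it gave 2 higher and 6 lower from day 9 to day 10 (2.92%), and 5 higher and 7 lower from day 7 to day 10 (37.3%). The block took away 2 calls and added 6, each given with its value in the text above, and changed no other member's call. The doubtful KO numbers limit this fit. Of 70 pairs of a gene and a comparison that passed, 38 kept their call under all 15 alternatives, and 1 reversed: Pfkfb4 for WT day 10 against day 7, at 0.0151 with limma on log2(TPM + 1), whose median over all genes was shifted. The causes of the other changes were not tested. Low counts limit P4ha2 and Ankrd37.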
